A study of Mus musculus with 6 samples.

Results

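The genes described here make up the machinery of the replication fork and the repair and checkpoint functions of S phase, 47 genes chosen by symbol, and their RNA was compared between myotubes and myoblasts. A member was read from the Affymetrix probe set (a group of short probes against 1 transcript) whose only annotated symbol was its own; where several qualified, the brightest by mean over all 6 arrays was used. This gave 45 of the 47 genes, out of 11943 genes on the array with such a probe set, and BRCA2 and FANCA are not analysed here. Of the 45, 41 passed a filter on dim probe sets and were tested, and PRIM2, CHAF1B, RAD54L and BARD1 lay below it.

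At a replication fork a helicase that includes the GINS complex unwinds the DNA, replication protein A (RPA) coats the exposed strands, and polymerase alpha with primase starts each new strand. Replication factor C (RFC) then loads the ring-shaped clamp PCNA, which holds polymerases delta and epsilon on the template, while the flap nuclease FEN1 and the ligase LIG1 join the lagging-strand fragments. Many of these genes are known targets of the E2F transcription factors, which the retinoblastoma protein family represses when a myoblast leaves the cell cycle to form a myotube.

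The series holds 3 arrays of myotubes, cultured by the labels in 2.5% horse serum, and 3 arrays of myoblasts, for which the labels give no medium. The title assigns both to C2C12, a mouse line of dividing myoblasts that fuse into multinucleated myotubes, and total RNA was labelled with biotin. The labels name no genotype, treatment other than serum, or time in culture, and the group of myoblast array 3 came from its description, since its title names no stage. That description is shared by the 3 myoblast arrays and numbers only myoblasts 1 and 2, and array 3 has no myoblast label of its own. Nothing in them tells separate cultures from repeat arrays of 1 culture, so the p-values cover the spread among these arrays and that spread may be technical.

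The arrays are of a design against human transcripts although the labels give mouse as the organism, and the probe set against the human Alu repeat, a repeat of primate genomes, was among the 55 brightest of 22283 on each array, with signals of 109234 to 275505 in myotubes and 52704 to 188403 in myoblasts. Which species the RNA came from is unsettled, and each gene carries the human name of its probe set. Across tested probe sets Pearson's r was 0.988 for myoblast arrays 2 and 3 and 0.872 to 0.890 for the other within-group pairs. Between groups it was 0.737 to 0.881. Myoblast array 1 correlated at 0.881 with myotube array 3, and at 0.872 and 0.881 with myoblast arrays 2 and 3. Probe sets are not independent replicates. Scan day and chip lot cannot be told apart from group. By the laboratory codes of the run records, myoblast array 1 belongs to the same run of codes (here called the laboratory series) as every myotube array. Myoblast arrays 2 and 3 make up a second, so blocking on the series leaves only myoblast array 1 to compare with. The brightest of 27 control probe sets with no spiked RNA, 520 to 1040 on myotube arrays and 252 to 920 on myoblast arrays, sets the background level of each array. It was 920 on myoblast array 1, the one left by the series block, and 326 and 252 on myoblast arrays 2 and 3. Muscle markers, of which ACTC1, MYH3 and TNNI1 were brightest, followed the labels, with 9 of 10 tested higher in myotubes. Their summed signal over 12 genes was 38150 to 45269 in myotubes. In myoblasts it was 10666 on array 1 and 2978 and 3037 on arrays 2 and 3, so array 1 was unlike the other myoblast arrays here. The myogenic factor gene MYOG and the creatine kinase gene CKM were at or below background on all 6 arrays.

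Because E2F factors are known to act through short sites near start sites, the mouse promoters of the members are shown first. The windows run from 250 bases before to 50 bases after each start site (RefSeq, build GRCm38.p6), and 39 of the 47 members matched by symbol. Searched on both strands, with no overlapping matches among the members, the E2F words TTTCCCGC, TTTGGCGC, TTTCGCGC and TTTGCCGC occurred in 12 of these 39 genes (30.8%), against 3.29% of 17492 protein-coding genes of the same table. The members' windows had a median GC content of 61.3%, against 56.3% for protein-coding genes. Of the 9 genes with a window that were called lower in myotubes (results follow), 4 held a word (Pclaf, Rfc3, Gins3 and Fancg), and of the 25 not called, 6 did (Pola1, Pole2, Pold1, Pold3, Lig1 and Msh6). Bard1 and Brca2, which were not tested, held the others. The promoters of Pclaf, Rfc3 and Fancg are printed to show where the words lie, in capitals, on the strand of the gene. Counting the start site as base 1 and the base before it as -1, the word of Pclaf (chr9:65890073-65890372, plus strand) begins at -5, those of Rfc3 (chr5:151651159-151651458, minus strand) at -10 and 1, and that of Fancg (chr4:43010252-43010551, minus strand) at -52. A match is a description of the letters and does not show binding. Since the probe sets are human and the species of the RNA is unsettled, the mouse windows may not be those of the cells measured.
Pclaf: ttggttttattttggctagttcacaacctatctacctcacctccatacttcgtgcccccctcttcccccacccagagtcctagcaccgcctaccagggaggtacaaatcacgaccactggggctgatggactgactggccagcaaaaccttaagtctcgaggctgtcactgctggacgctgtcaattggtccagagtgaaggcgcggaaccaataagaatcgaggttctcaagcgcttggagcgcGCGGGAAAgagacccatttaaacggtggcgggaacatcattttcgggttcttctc
Rfc3: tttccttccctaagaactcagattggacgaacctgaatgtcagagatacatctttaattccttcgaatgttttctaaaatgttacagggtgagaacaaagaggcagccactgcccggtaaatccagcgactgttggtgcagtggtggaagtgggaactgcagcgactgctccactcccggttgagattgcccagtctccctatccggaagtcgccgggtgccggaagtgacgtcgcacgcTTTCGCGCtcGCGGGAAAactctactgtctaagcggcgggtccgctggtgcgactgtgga
Fancg: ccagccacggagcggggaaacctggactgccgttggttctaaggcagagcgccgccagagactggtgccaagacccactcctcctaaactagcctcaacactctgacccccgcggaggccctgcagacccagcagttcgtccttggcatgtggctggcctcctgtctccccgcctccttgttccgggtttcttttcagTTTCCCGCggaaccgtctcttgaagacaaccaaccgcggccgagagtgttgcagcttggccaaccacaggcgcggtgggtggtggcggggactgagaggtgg

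Replication fork genes were lower in myotubes where they were called at all. Of 41 tested members 13 were called lower, 0 higher and 28 not called by limma (adjusted p under 0.05), and the 23 with an unadjusted p under 0.05 were all lower. At that unadjusted p, 15.2% of all tested genes were lower and 16.4% higher. Over all tested genes 6.74% were called lower and 5.41% higher (6.43% and 4.95% of probe sets). The members were chosen with earlier results of these data known, so setting them beside these shares is a description. A fall of at least 2-fold was called in 12 members, and in 4.57% of tested genes. The median log2 change, myotube minus myoblast, was -0.83 over the tested members and 0.12 over all 8148 tested genes, and 36 of the 41 had a change below 0, as did 43.5% of all tested genes. In 24 of the 41 every myotube signal lay below every myoblast signal, as in 16.3% of all tested genes, and in 0 every myotube signal lay above, against 18.5%. Since the filter favours genes that are high in 1 group, these counts describe the genes that passed; without it 25 of all 45 members had every myotube signal below every myoblast signal (12.1% of genes) and 0 had every one above (18.3%), and 12 of the 45 were called lower, against 3.81% of 11943 genes, and 0 higher, against 3.07%. In RNA from bulk cultures, fewer cells in S phase and less of each RNA per cell cannot be told apart.

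**Figure D1:**
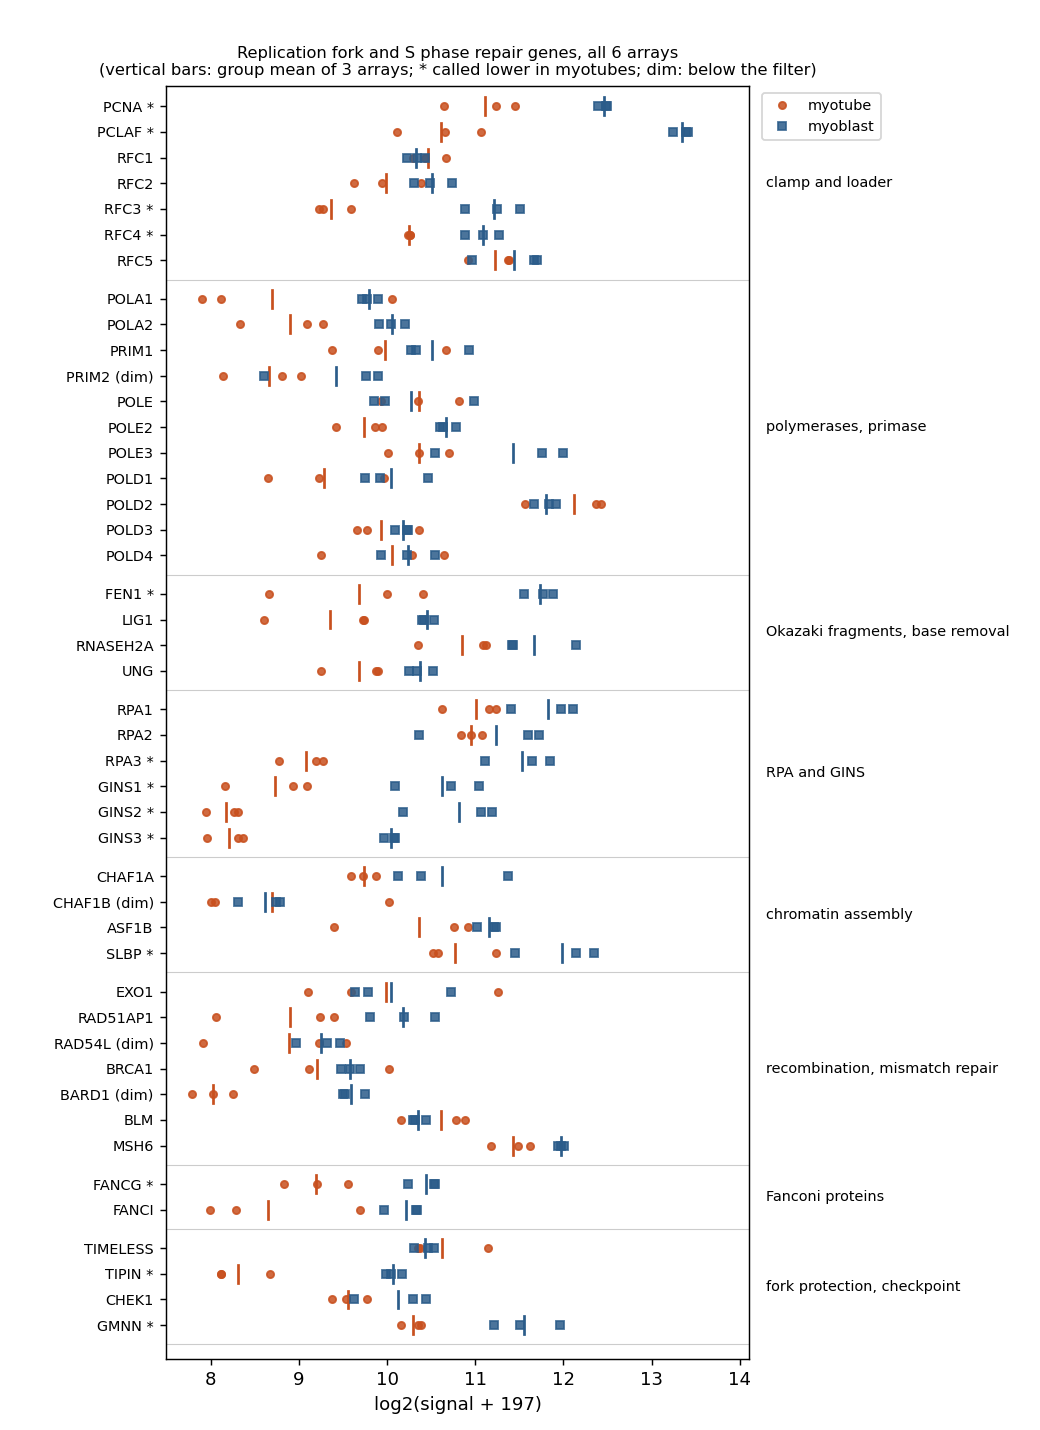
Signal of the 45 members on every array, as log2(signal + 197), with 1 row per gene grouped by role; circles are the 3 myotube arrays, squares the 3 myoblast arrays, vertical bars group means, and asterisks mark the 13 genes called lower in myotubes. PCLAF has the widest gap among bright members, and POLD2, BLM, RFC1 and TIMELESS overlap between groups.

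The calls depended on which arrays were in the fit. With the laboratory series as a block 3 members were called lower, PCLAF, RPA3 and CHAF1A, where 1.17% of all tested genes were. None was called higher (1.63% of genes), while the median change was -0.86 and 18 members had an unadjusted p under 0.05, all lower (8.44% of genes). The 11 other members called with all arrays had block adjusted p-values of 0.0593 to 0.333. In the first series alone, myotube arrays 1 to 3 against myoblast array 1, changes equal those with the block, 2 members were called, PCLAF and RPA3, and 7 were lower at an unadjusted p under 0.05 (5.06% of genes). The second series holds myoblasts only and gives no value. Leaving out a myotube array gave 8 (array 1), 9 (array 2) and 13 (array 3) members called lower, and leaving out a myoblast array gave 17 (array 1), 7 (array 2) and 6 (array 3). The share of all tested genes called lower moved too, to 2.92%, 2.25% and 7.84% without myotube arrays 1, 2 and 3 and to 12.5%, 2.63% and 2.38% without myoblast arrays 1, 2 and 3. PCLAF, PCNA, RFC3, FEN1, RPA3 and GINS2 were called lower whichever array was left out.

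**Figure D2:**
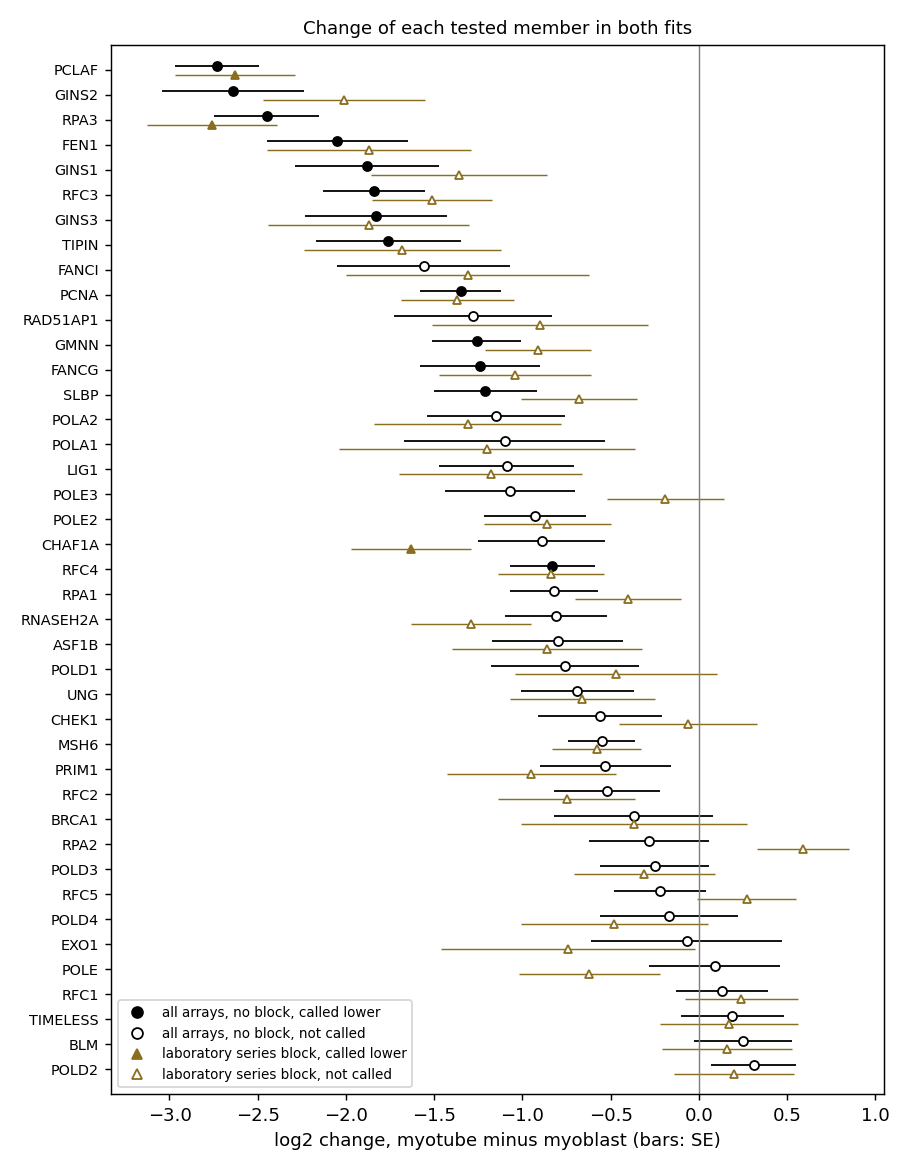
Log2 change, myotube minus myoblast, of the 41 tested members ordered by size, with SE bars; circles are the fit with all arrays and no block, triangles the fit with the laboratory series as a block, and filled symbols are called lower. The 13 filled circles run from PCLAF at -2.73 to RFC4 at -0.83, and with the block only PCLAF, RPA3 and CHAF1A are filled.

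In the clamp and its loader, 4 of 7 genes fell, PCLAF, RFC3, PCNA and RFC4, where 6.74% of all tested genes were called lower. No role holds more than 10 tested genes, too few to read a share from. PCLAF, a small protein that binds PCNA and marks the replicating clamp, had signals of 1941, 1420 and 914 in myotubes, against 9469, 10546 and 10697 in myoblasts. It fell 6.65-fold (log2 -2.73 ± 0.24 SE, limma adjusted p = 0.000379), and with the series block it was -2.63 ± 0.34 (adjusted p = 0.00795). A second, dimmer PCLAF probe set gave 1437, 1254 and 607 in myotubes and 938, 1218 and 1096 in myoblasts, with a change of -0.04 ± 0.33 that was not called, so the PCLAF fall rests on 1 of 2 probe sets. PCNA itself, the clamp, gave 2591, 1400 and 2216 in myotubes and 5515, 5564 and 5181 in myoblasts. The groups did not overlap, and the 3 myoblast values lay close together. PCNA fell 2.54-fold (-1.35 ± 0.23, limma adjusted p = 0.00582; -1.37 with the series block, adjusted p = 0.067).

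RFC is a ring of 1 large and 4 small subunits, and 2 of the 5 genes, RFC3 and RFC4, were called; differences between RFC genes were not tested. RFC3 gave 577, 403 and 424 in myotubes and 1688, 2224 and 2703 in myoblasts. All 3 myotube values were at or below the background of their array, so its fall is at least 2.52-fold, with the dim signals raised to the background level (limma adjusted p = 0.0044; with the series block -1.51, adjusted p = 0.0593). Its other tested probe set had a change of -1.36 ± 0.42 (adjusted p = 0.061). RFC4 gave 1031, 1028 and 1009 in myotubes against 1985, 1700 and 2275 in myoblasts. It fell 1.78-fold (-0.83 ± 0.24, limma adjusted p = 0.047), and the call was lost on leaving out any array but myoblast array 1 (adjusted p up to 0.282), as it was when the series was blocked (adjusted p = 0.192). RFC2, with 595, 1144 and 786 in myotubes and 1505, 1072 and 1243 in myoblasts, had a change of -0.52 ± 0.30 that was not called (limma adjusted p = 0.266). RFC5 and the large subunit RFC1 had changes of -0.22 ± 0.26 and 0.13 ± 0.26, neither called. With the series block RFC5 was at 0.27, and RFC1 at -0.01 after quantile normalization.

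None of the 10 tested genes of the polymerases and primase was called, and 3 of the 10 (POLE2, POLA2 and POLE3) were lower at an unadjusted p under 0.05, as were 15.2% of all tested genes. The nearest to a call was POLE2, the second subunit of polymerase epsilon, with 784, 732 and 488 in myotubes and 1357, 1565 and 1391 in myoblasts. These groups did not overlap, and the change was -0.93 ± 0.29 (limma adjusted p = 0.0605), or -0.97 ± 0.29 without myoblast array 1 (adjusted p = 0.0412). POLE3, a histone-fold subunit of the same enzyme, had a change of -1.07 ± 0.37 (adjusted p = 0.0856). Its myoblast values were unequal, 1296 on array 1 and 3887 and 3262 on arrays 2 and 3, so the change was -1.52 without myoblast array 1 (limma adjusted p = 0.00511) and -0.19 with the series block. The catalytic subunit POLE overlapped fully, with 777 to 1605 in myotubes and 725 to 1826 in myoblasts.

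Polymerase alpha and primase start the new strands. Both alpha subunits were at or below background on all 3 myotube arrays: POLA2, the accessory subunit, gave 126, 422 and 351 in myotubes and 986, 765 and 857 in myoblasts (-1.15 ± 0.39, limma adjusted p = 0.0851). POLA1, the catalytic subunit, gave 43.3, 869 and 80.1 in myotubes and 754, 645 and 680 in myoblasts. Myotube array 2 was thus above all 3 myoblast arrays, although 869 is below that array's own background of 1040, and the change was -1.10 ± 0.57 (adjusted p = 0.217). The small primase subunit PRIM1 had a change of -0.53 ± 0.37 (adjusted p = 0.353), and the large subunit PRIM2 ranged from 85.9 to 323 in myotubes and 193 to 756 in myoblasts. Polymerase delta, extends the lagging strand, and its changes were -0.76 ± 0.42 for the catalytic subunit POLD1, 0.31 ± 0.24 for POLD2, -0.25 ± 0.31 for POLD3 and -0.17 ± 0.39 for POLD4, with overlap in all 4. POLD2 was the brightest of the polymerase genes, at 5096, 5283 and 2831 in myotubes and 3661, 3453 and 3047 in myoblasts, and it had the highest change of all tested members.

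Among the enzymes that finish lagging-strand fragments and remove ribonucleotides and uracil, 1 of 4 fell, where 6.74% of all tested genes did. All 4 had every myotube signal below every myoblast signal, as had 16.3% of all tested genes. A set of 4 genes is too small to read a share from. FEN1, the flap endonuclease, gave 1159, 207 and 824 in myotubes and 2816, 3566 and 3303 in myoblasts. It fell 4.14-fold as fitted (-2.05 ± 0.40, limma adjusted p = 0.0113), and its other probe set fell 1.86-fold (adjusted p = 0.0446). Myotube array 2 was the low one for the first FEN1 probe set, at 207, below that array's background of 1040. For the second it was the highest myotube array, at 1804. With the series block the first was at -1.87 (adjusted p = 0.139). LIG1, the ligase that seals the fragments, gave 656, 192 and 653 in myotubes and 1286, 1175 and 1152 in myoblasts (-1.09 ± 0.38, limma adjusted p = 0.087). RNASEH2A, the catalytic subunit of ribonuclease H2, had a change of -0.81 ± 0.29 (adjusted p = 0.0926), and -1.29 with the series block (adjusted p = 0.0938). UNG, the uracil glycosylase, had one of -0.69 ± 0.32 (adjusted p = 0.169).

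The RPA and GINS genes had a median change of -1.86, against 0.12 over all tested genes. Of the 6 genes 4 fell, GINS2, RPA3, GINS1 and GINS3, where 6.74% of all tested genes did. A set of 6 genes is too small to read a share from. RPA is a trimer, and only its smallest subunit was called by its brightest probe set. RPA3 gave 391, 424 and 243 in myotubes and 3481, 2020 and 3008 in myoblasts. The myotube values were all at or below background, so the fall is at least 3.17-fold (log2 -2.45 ± 0.30 as fitted, limma adjusted p = 0.00141), and it was -2.76 with the series block (adjusted p = 0.00958). RPA1, the large DNA-binding subunit, gave 1386, 2206 and 2084 in myotubes and 2515, 3825 and 4217 in myoblasts. Its change was -0.82 ± 0.25 (limma adjusted p = 0.0625), -1.04 without myoblast array 1 (adjusted p = 0.0151) and -0.40 with the series block. The other RPA1 probe set fell 2.37-fold (adjusted p = 0.0224). RPA2 gave 1958, 1633 and 1782 in myotubes and 1124, 3193 and 2909 in myoblasts, so that myoblast array 1 lay below all myotube arrays and arrays 2 and 3 above. Its change of -0.28 ± 0.34 was not called, while it was -0.71 without myoblast array 1 (adjusted p = 0.0324) and 0.59 with the series block (adjusted p = 0.288).

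GINS is a ring of subunits within the fork helicase, and the 3 subunits among the members all fell, each with its 3 myotube signals at or below background. GINS2 gave 111, 119 and 49.6 in myotubes and 963, 2147 and 1944 in myoblasts, a fall of at least 1.92-fold (-2.64 ± 0.40 as fitted, limma adjusted p = 0.00382; with the series block -2.01, adjusted p = 0.0658). GINS1 gave 90.5, 349 and 294 in myotubes and 895, 1904 and 1493 in myoblasts. Its change was -1.88 ± 0.41 as fitted (limma adjusted p = 0.0172), and -1.36 with the series block, not called. GINS3 had a change of -1.83 ± 0.40 as fitted (limma adjusted p = 0.019), and -1.87 with the series block, not called. Myoblast array 1 was also below background for both, at 895 for GINS1 and 885 for GINS3. With only the myotube signals raised to background, the falls were 1.68-fold for GINS1 and 1.12-fold for GINS3. These 2 sizes are not lower bounds, since the level on myoblast array 1 is uncertain too. The call of GINS1 was lost without myoblast array 2 or 3 or myotube array 1 (adjusted p up to 0.117), and that of GINS3 without myoblast array 2 or 3 (up to 0.133).

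**Figure D3:**
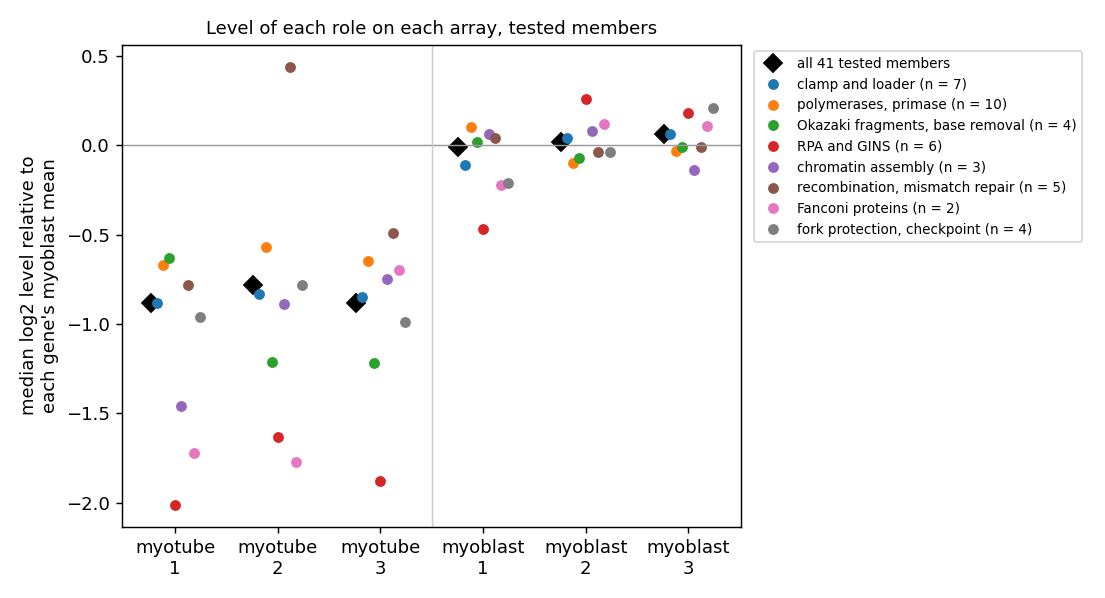
Median level of the tested members of each role on each array, on the log2 scale relative to each gene's mean over the myoblast arrays; diamonds are all 41 tested members and circles the 8 roles. The median of all members is -0.88, -0.78 and -0.88 on the myotube arrays and -0.01 to 0.06 on the myoblast arrays, and RPA and GINS are lowest on myotube arrays 1 and 3.

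Newly made DNA is packed by histone chaperones, and of 3 tested genes of chromatin assembly and histone supply 1 fell. Of all tested genes 6.74% did, and 3 genes are too few to read a share from. SLBP, which binds the stem-loop of histone messages, gave 1271, 1329 and 2209 in myotubes and 2611, 4307 and 5024 in myoblasts. It fell 2.31-fold (-1.21 ± 0.29, limma adjusted p = 0.0243). The call was lost without myoblast array 2 or 3 or myotube array 1 or 2 (adjusted p up to 0.113). Blocking on the series gave a change of -0.68 (adjusted p = 0.333). CHAF1A, the large subunit of chromatin assembly factor 1, gave 742, 654 and 578 in myotubes and 2446, 916 and 1137 in myoblasts. Here myoblast array 1 was the highest, and the change was -0.89 ± 0.36 (limma adjusted p = 0.131) but -1.63 with the series block (adjusted p = 0.0479). A second CHAF1A probe set fell, at -1.59 ± 0.43 (adjusted p = 0.0393), with all myotube signals at or below background. ASF1B, a histone chaperone of dividing cells, had a change of -0.80 ± 0.37 (adjusted p = 0.177). CHAF1B was dim, at 60.7 to 846 in myotubes and 121 to 246 in myoblasts, all at or below background.

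Of the genes of homologous recombination and mismatch repair 0 of 5 tested were called by limma, and 2 of the 5 were lower at an unadjusted p under 0.05, which 15.2% of all tested genes were; 5 genes are too few to read a share from. MSH6, a mismatch recognition protein, gave 2114, 2954 and 2665 in myotubes and 3918, 3736 and 3805 in myoblasts. RAD51AP1, a homologous recombination factor, gave 480, 409 and 69.7 in myotubes and 697, 975 and 1291 in myoblasts. Neither overlapped between groups, and the changes were -0.55 ± 0.19 for MSH6 and -1.28 ± 0.45 for RAD51AP1 (limma adjusted p = 0.0909 for each). RAD51AP1 was at or below background on all 3 myotube arrays and on myoblast array 1, so the size of its change is uncertain. BRCA1 had a change of -0.37 ± 0.45, the nuclease EXO1 one of -0.07 ± 0.54 and the helicase BLM one of 0.25 ± 0.28, all with overlapping groups. For EXO1 1 array set the mean, with 2245 on myotube array 2 and 355 and 572 on the others, against 1500, 599 and 686 in myoblasts. BARD1, the partner of BRCA1, lay below the filter, yet its signals were 109, 63.9 and 24.5 in myotubes and 541, 528 and 664 in myoblasts. In the fit without the filter BARD1 was called lower (-1.57 ± 0.35, limma adjusted p = 0.0247), although every myotube value and that of myoblast array 1 were below background. RAD54L, a recombination motor, ranged from 44.5 to 545 in myotubes and 304 to 511 in myoblasts.

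The Fanconi anaemia proteins repair cross-links that block forks. FANCG, a subunit of the core ligase complex, gave 395, 257 and 556 in myotubes and 1013, 1297 and 1279 in myoblasts. It fell 2.36-fold as fitted (-1.24 ± 0.34, limma adjusted p = 0.0411), with the signals on myotube arrays 1 and 2 at or below background. The call was lost without myoblast array 2 or 3 or myotube array 1 or 2 (adjusted p up to 0.215). It was also lost when the series was blocked (-1.04). FANCI, a partner in the pair that the complex marks with ubiquitin, gave 57.4, 115 and 628 in myotubes and 802, 1095 and 1094 in myoblasts. Myotube array 3 stood above the other 2, and the change was -1.56 ± 0.49 (limma adjusted p = 0.0645), or -2.07 ± 0.39 without it (adjusted p = 0.018). The FANCI signals on myotube arrays 1 and 2 and myoblast array 1 were at or below background. Without myotube array 3 only such myotube signals are left, so that size is uncertain.

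In fork protection, checkpoint and origin control, 2 of 4 genes fell, TIPIN and GMNN. Of all tested genes 6.74% did, and 4 genes are too few to read a share from. TIPIN and TIMELESS form a complex that holds the helicase and polymerases together, and 1 of the pair was called. TIPIN gave 81.0, 81.7 and 213 in myotubes and 820, 863 and 954 in myoblasts. Its change was -1.76 ± 0.41 as fitted (limma adjusted p = 0.022), with the myotube values and myoblast array 1 at or below background. With only the myotube values raised to background the fall was 1.15-fold, which is not a lower bound. TIMELESS gave 1134, 2066 and 1113 in myotubes and 1211, 1065 and 1284 in myoblasts, with a change of 0.19 ± 0.29 that was not called; the difference between the 2 genes was not tested. GMNN (geminin), which blocks a second licensing of origins in S phase, gave 1135, 1112 and 943 in myotubes and 2173, 2709 and 3782 in myoblasts. It fell 2.40-fold (-1.26 ± 0.25, limma adjusted p = 0.0121), and the call was lost without myoblast array 3 (adjusted p = 0.098) and with the series block (-0.91, adjusted p = 0.156). TIPIN was lost without myoblast array 2 or 3 or myotube array 1 or 2 (adjusted p up to 0.159) and with the block (adjusted p = 0.172). CHEK1, the checkpoint kinase of S phase, gave 469, 675 and 544 in myotubes and 592, 1063 and 1199 in myoblasts. Its change of -0.56 ± 0.35 was not called, and it was -0.06 with the series block.

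**Figure D4:**
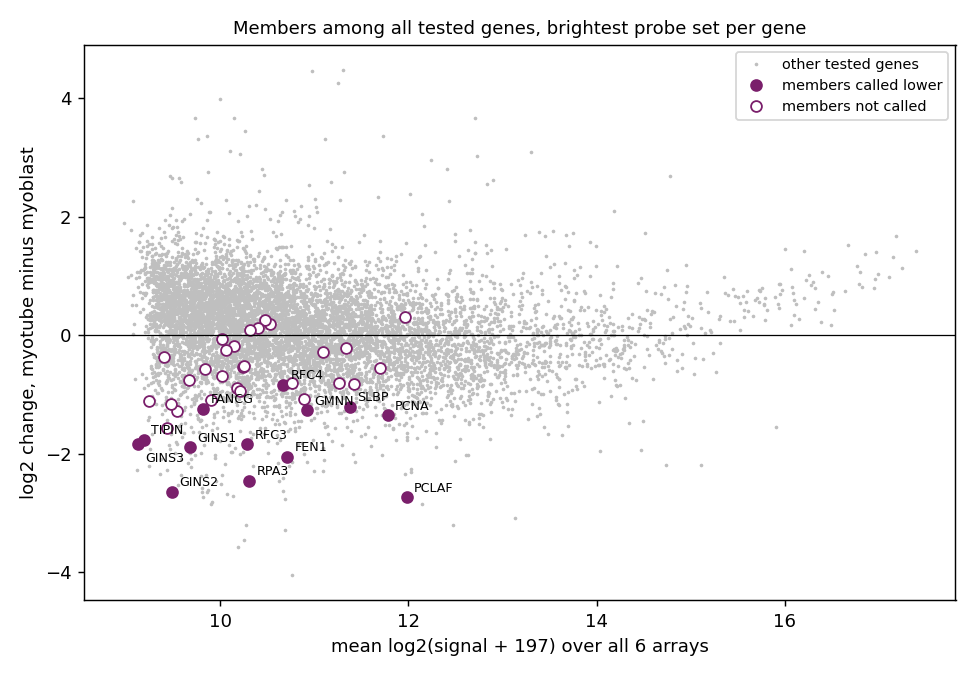
Log2 change, myotube minus myoblast, against the mean log2(signal + 197) over all 6 arrays for each of 8148 tested genes; grey points are other genes, filled circles the 13 members called lower and open circles the 28 not called. PCLAF is the brightest called member, and GINS3 and TIPIN lie at the dim end.

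The brightness of a gene bears on these values. Of the 13 called members, 6 had every myotube signal at or below background. Another 3 (RFC4, FEN1 and FANCG) had 1 or 2 such signals, and 4 (PCNA, PCLAF, SLBP and GMNN) had none. Of 10 genes with more than 1 tested probe set, the probe sets gave the same sign in 9 and the same call in 6. RFC1 had both signs, and PCLAF, RFC3, RPA1 and CHAF1A had 1 probe set called and 1 not. All 11 further probe sets had changes below 0, and 3 of them were called lower.

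Among 35 tested genes of the same pathways that are not members, 6 fell (6.74% of all tested genes) and 0 rose (5.41%). The other 29 were not called by limma, and the median change of the 35 was -0.09. At an unadjusted p under 0.05, 11 were lower (15.2% of all tested genes) and 0 higher (16.4%). The largest fall was that of the histone chaperone NASP, 6.52-fold as fitted (at least 3.06-fold). The deubiquitinase USP1, which acts on the FANCI complex and PCNA, fell 3.50-fold as fitted, with 2 myotube signals at or below background. The replication initiation factor MCM10 fell 3.48-fold as fitted (at least 1.48-fold). CDC45, TOP1 and RECQL were the other genes that fell. With the series block 1 of the 35 was called lower. Markers of dividing cells in G2 and M phase moved with the members: 9 of 12 fell (CCNB1, CCNA2 and BIRC5 were brightest, and BIRC5 was not called), with a median of -1.94 and a summed signal of 6592 to 10785 in myotubes against 32072 to 37366 in myoblasts. The summed signal of 10 fibroblast markers was 424016 to 642303 in myotubes and 130930 to 299591 in myoblasts, with 8 of 10 higher, led in brightness by COL1A2 (not called), COL1A1 and COL3A1. Macrophage, endothelial and adipocyte markers were mostly dim, with 3 of 7, 2 of 5 and 3 of 4 at or below background on every array, among them PTPRC, CDH5 and ADIPOQ. The brightest of each were CD163, AIF1 and CSF1R, PECAM1, TEK and VWF, and FABP4, ADIPOQ and PLIN1. Of these CD163, AIF1 and PECAM1 were tested and not called, and the other 6 lay below the filter. CSF1R gave 300 to 1197 in myotubes and 184 to 248 in myoblasts, and VWF 441 to 839 in myotubes and 116 to 193 in myoblasts. Both had every myotube signal above every myoblast signal, as did CD14, which was at or below background on every array. Without the filter 18.3% of all 11943 genes did so. The part of these markers in the changes of the members was not tested.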

How the data were processed

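The authors deposited an intensity per probe set, a linear signal; per the submitters' processing notes the tool was MAS5, and its version and scaling are not given in the sources used here. Here the mean between the 2 percent tails was 1500.4 to 1500.5 on each array. The deposited run records of the arrays gave chip lot, scan day and laboratory codes; their replicate numbers differ from the titles of the myoblast arrays, and the titles were used. Arrays give no depth, and their number limits the precision.

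Of 22283 probe sets, 68 controls and 46 sex-linked ones were left out. The 2016 platform annotation named 19065 probe sets with 1 symbol, 1043 with several (not used to name a gene) and 2107 with none. Values were taken as log2(signal + 197), the 25th percentile of the table, which shrinks the changes of dim genes against the plain ratio of signals. For signals at or below background the fitted fall can still be too large. GINS2 fell 6.24-fold as fitted and 1.92-fold with its myotube signals raised to background. The filter kept probe sets at or above the 40th percentile of the mean over all arrays. The 13301 kept were tested, two-sided, in limma 3.58.1 under R 4.3.3 (lmFit, then eBayes with an intensity trend; statmod 1.5.0 for the random block) with Benjamini-Hochberg adjustment over all of them. The threshold was 0.05, and each log2 change is given ± its SE. The fit was tested on simulated data. Within each role, the 3 largest called changes and the uncalled member with the lowest adjusted p have values for every array; others were added after their values were seen. Of the other pathway genes the 3 largest called falls and rises, and of each marker list its brightest genes, were to be named. Members and lists were chosen with earlier results of these data known. Alternatives were another pseudocount, filter, scaling, variance model, adjustment or probe set rule, the replicate number, laboratory series or chip lot as a block, arrays left out or averaged, and a spike-in covariate. Promoters came from RefSeq. Figures were drawn with matplotlib 3.10.9.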

Additional observations from a re-analysis of the deposited data

How the results depend on the processing

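The count of 13 members called lower was 8 with the filter at the 60th percentile (26 members tested; 9.92% of all tested genes called lower), 6 with myoblast arrays 2 and 3 averaged (2.54%), 5 with chip lot as a random block (1.85%; no lot holds both groups), 3 with the laboratory series as a block (1.17%) and 2 in the first series alone (0.515%), and it ranged from 6 to 17 when each array was left out. Other pathway genes called lower, 6 with all arrays, were 3 with these arrays averaged, 3 with the chip lot, 1 with the series block and 0 in the first series alone (4 at an unadjusted p under 0.05 by limma), and 3 to 8 with an array left out. The members' median change of -0.83 was -1.04 with a pseudocount of 16, -0.94 after quantile normalization, -0.93 with probe sets averaged per gene and -0.93 to -0.82 with an array left out. It was below 0, and no member was called higher, in all 24 alternatives. With the replicate number as a block 17 members were called lower (9.79% of genes); deviations of same-numbered arrays correlated at 0.25, -0.18 and 0.38, so the numbers were not taken to pair the arrays.

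No called member changed sign in any alternative. Uncalled members near 0 did. POLE (0.09) was at -0.09 after quantile normalization, -0.62 with the series block and in the first series alone, -0.08 with the 2 arrays averaged, -0.46 with the spike-in covariate, and -0.13 to 0.45 with an array left out (-0.12 and -0.05 without myoblast arrays 2 and 3). RFC5 (-0.22) was at 0.27 with the series block and in that series alone and 0.05 with the spike-in covariate, where RPA2 (-0.28) was at 0.59 and 0.17. RFC1 (0.13) was at -0.01 after quantile normalization and -0.19 with the mean of probe sets. With an array left out EXO1 ranged from -0.70 to 0.37 (0.27 without myoblast array 1 and 0.13 without myotube array 3), POLD4 from -0.47 to 0.23 and TIMELESS from -0.06 to 0.33. The cause was not tested. Signals near background limit what the 6 called genes dim in myotubes can show.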
